A study of Mus musculus with 6 samples.

Results

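Interferon-stimulated genes are the genes that cells switch on after interferons, the secreted proteins of antiviral defence, bind their receptors. A list of 36 such genes was taken by symbol from mRNA-seq of mouse hearts, and all 36 were found among the 23808 genes of the table. The list held 8 GTPase genes that are best known as targets of interferon-gamma (Gbp2, Gbp3, Gbp4, Gbp6, Gbp7, Igtp, Irgm1 and Iigp1). The other 28 are here called type I-like, since most are best known as targets of the type I interferons. Irf1, which interferon-gamma also induces, is counted among them. The hearts came from wild-type female mice given a high-fat diet (HFD, 3 libraries) or normal chow (NC, 3 libraries), in both cases between week 4 and week 12 of age. All animals carried the wild-type genotype and received no other agent per the labels, which give neither the strain nor the make-up of the diets. Nothing in them tells separate animals from repeat libraries of the same animal. Each p therefore reflects library-to-library spread only, which is possibly technical.

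Type I interferons signal through the receptor chains Ifnar1 and Ifnar2 and the kinases Jak1 and Tyk2. These phosphorylate Stat2, which enters the nucleus in a complex with Irf9 that binds the interferon-stimulated response element (ISRE) in target promoters. Interferon-gamma signals through Ifngr1 and Ifngr2, and its signal acts through a shorter palindrome, the gamma-activated sequence (GAS), and induces among others the transcription factor Irf1. Many promoters answer to both kinds of interferon, so the division of the list into classes is one of degree. Endothelial cells, macrophages, fibroblasts and cardiomyocytes of the heart can all respond, and the genes are also expressed at a low level without infection.

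As the ISRE is the element bound in target promoters, promoter windows were searched for it. RefSeq windows of build GRCm38.p6, from 250 bases before to 50 bases after a start, were on hand for 25 of the 36 genes. The ISRE core, TTTC and again TTTC with any 2 bases between them, searched on both strands, was present in 16 of these 25 genes (64%), against 1079 of 27025 genes with a window (3.99%). It stood in 5 of 5 GTPase genes and in 11 of 20 type I-like genes. The GAS letters TTCNNNGAA, which read the same on both strands, were present in 6 of the 25 genes and in 9.55% of all genes. The following stretches run 5′ to 3′ on the strand of each gene, with ISRE and GAS letters in capitals. They were chosen to show the ISRE singly, repeated and in reverse, and in Irf1 a GAS alone, in genes whose values are given below.
Gbp2, chr3:142620584-142620633, plus strand: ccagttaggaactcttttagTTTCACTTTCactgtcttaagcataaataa
Gbp7, chr3:142530263-142530312, plus strand: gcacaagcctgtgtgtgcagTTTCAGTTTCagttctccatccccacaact
Igtp, chr11:58199502-58199551, plus strand: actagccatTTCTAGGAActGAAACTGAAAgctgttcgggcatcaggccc
Irgm1, chr11:48871415-48871470, minus strand: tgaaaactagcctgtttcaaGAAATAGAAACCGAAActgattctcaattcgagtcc
Ifit1, chr19:34640765-34640833, plus strand: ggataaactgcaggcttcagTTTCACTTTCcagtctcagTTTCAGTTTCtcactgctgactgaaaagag
Ifit3, chr19:34583353-34583436, plus strand: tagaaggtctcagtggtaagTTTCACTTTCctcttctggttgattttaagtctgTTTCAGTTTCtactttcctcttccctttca
Ifit3b, chr19:34607749-34607832, plus strand: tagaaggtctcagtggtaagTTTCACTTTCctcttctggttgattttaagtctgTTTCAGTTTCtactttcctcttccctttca
Isg15, chr4:156200855-156200916, minus strand: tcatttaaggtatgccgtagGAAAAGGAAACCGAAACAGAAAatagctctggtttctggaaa
Trim30a, chr7:104465200-104465249, minus strand: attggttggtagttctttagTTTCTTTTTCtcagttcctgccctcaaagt
Bst2, chr8:71537567-71537622, minus strand: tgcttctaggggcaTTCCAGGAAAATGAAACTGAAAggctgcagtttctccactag
Irf1, chr11:53769904-53769952, plus strand: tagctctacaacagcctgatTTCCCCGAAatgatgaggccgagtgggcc

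The stretches of Ifit3 and Ifit3b were identical over 84 bases, and the pair lies side by side on chromosome 19. Igtp and Bst2 held a GAS and an ISRE close together, and in Bst2 the letters of both overlap. Gbp7 also held 2 GAS matches, which lie before the stretch shown, and Oas1a, not shown, held both motifs. Irf1 held a GAS and no ISRE in its windows. A match is a description of letters, not a site, and no match says only that these letters are not in the window.

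Of the 36 genes, 35 averaged 1 FPKM or more across the 6 libraries and were tested among 11456 genes. FPKM values relate fragments to gene length and to library size. They are not counts, and the depth of the libraries is unknown. No gene passed an adjusted p of 0.05 in the whole comparison (0% of 11456 genes with limma and Benjamini-Hochberg adjustment, smallest adjusted p = 0.281). All 35 members had an adjusted p of 0.9998 with limma, and 415 genes (3.62%) had an unadjusted p under 0.05. Fold changes are HFD minus NC on the log2(FPKM + 1) scale, which understates those of low genes. Cardiomyocyte genes dominated every library, with the alpha myosin heavy chain gene Myh6 between 1263 and 2020 FPKM, in keeping with the labelled tissue. Markers of atrial muscle were uneven within both diets, with Nppa between 227 and 4185 FPKM on HFD and between 277 and 9404 FPKM on NC. In bulk tissue, fewer cells of a type and less RNA per cell cannot be told apart.

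A single library stood above the others in most of these genes. HFD 2 held the highest FPKM of the 6 libraries in 28 of 35 tested members (80%), against 17.7% of all genes tested. This included 8 of 8 GTPase genes and 20 of 27 type I-like genes. Summed over the 36 genes, the level was 345, 505 and 311 FPKM in HFD 1, HFD 2 and HFD 3, against 349, 367 and 304 FPKM in NC 1, NC 2 and NC 3. HFD 2 had the highest sum, though a few abundant genes weigh most in it and HFD 1 had the lowest FPKM total over all genes. Gene by gene, HFD 1 lay above all 3 NC libraries in 17 of 35 members (48.6%, against 11.5% of all genes), and HFD 2 in 31 (88.6%, against 24.2%). HFD 3 did so in 9 (25.7%, against 41.9% of all genes). Below all 3 NC libraries lay HFD 3 in 9 members (25.7%, against 13.2% of all genes). HFD 1 lay below them in 6 (17.1%, against 43.6%) and HFD 2 in 0 (against 32.3%). With each library scaled to the same sum, HFD 1 was above all NC libraries in 23 members (65.7%, against 37.6% of all genes). The ratio of HFD 2 to the NC mean had a median of 1.63 over the tested members, with a range of 0.989 to 3.01, and exceeded 1.5 in 24 of them (9.65% of all genes). The same ratio had a median of 1.16 for HFD 1 and of 0.956 for HFD 3. Over all genes tested the median ratio was 0.947 for HFD 2, 0.855 for HFD 1 and 1.13 for HFD 3.

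**Figure D1:**
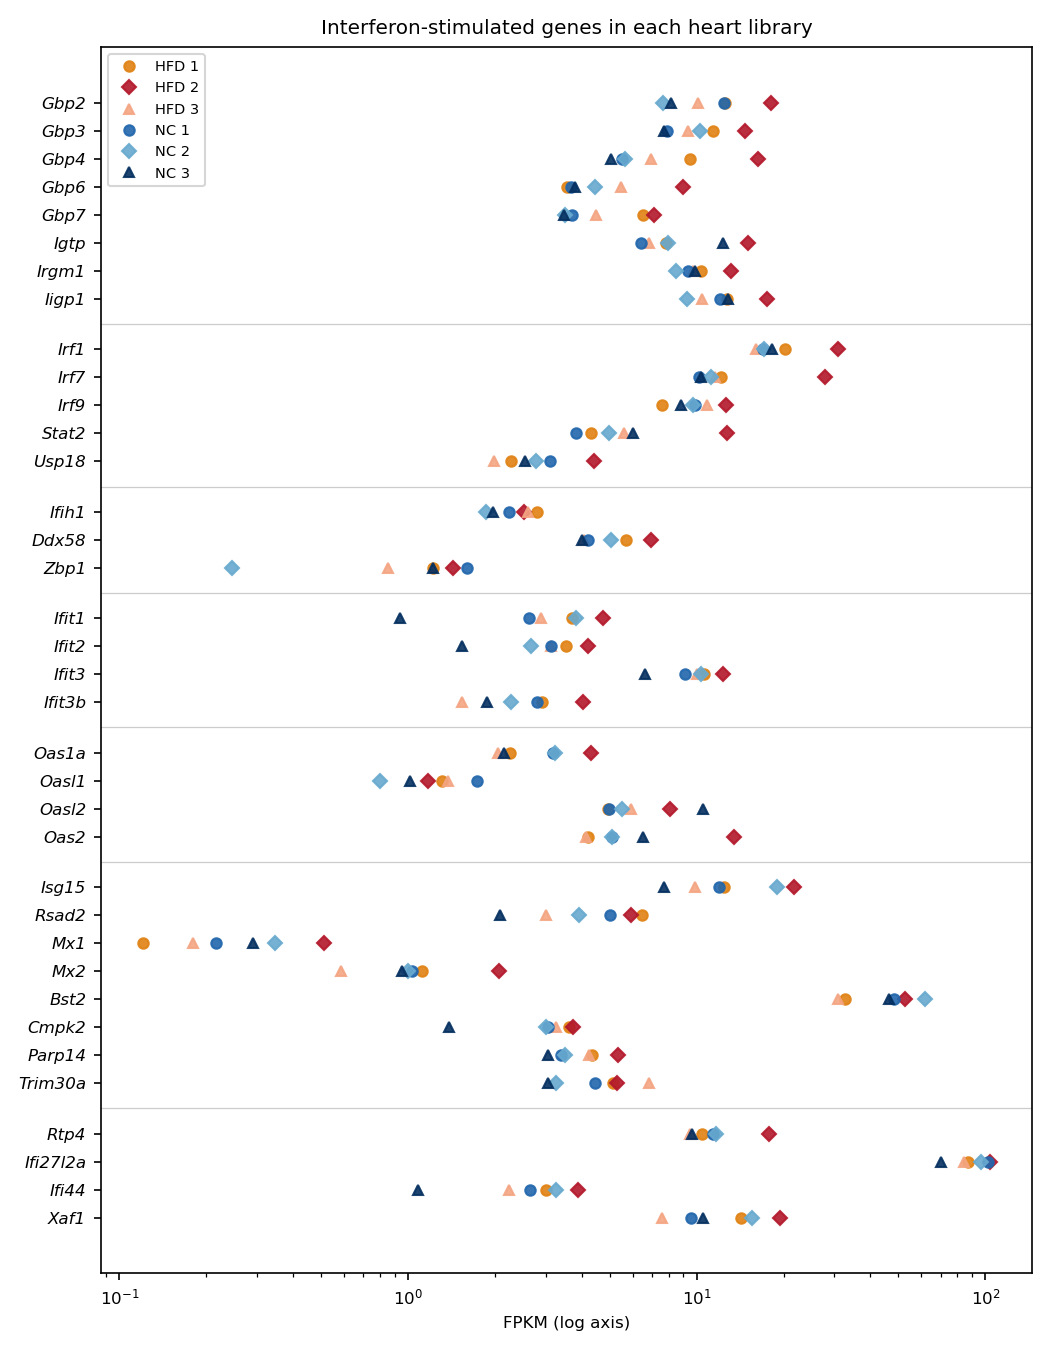
FPKM (log axis) of the 36 interferon-stimulated genes in each library, with HFD libraries in warm and NC libraries in blue colours and grey lines between the role groups. The dark red diamond of HFD 2 is the rightmost point in 28 of the 35 tested genes.

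**Figure D2:**
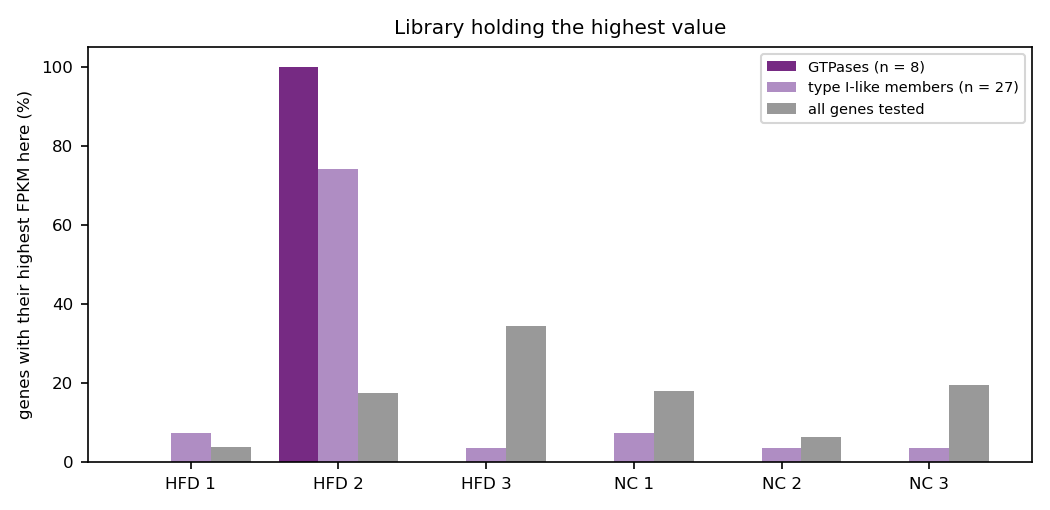
Share of genes (%) whose highest FPKM lies in each library, for the 8 GTPase genes, the 27 tested type I-like genes and all 11456 genes tested. HFD 2 holds 100% of the GTPase genes and 17.7% of all genes.

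With all libraries, 31 of 35 tested members had a log2 fold change above 0 (88.6%, against 46.9% of all genes tested), with a median of 0.26 against −0.02 over all genes. Without HFD 2, 22 of 34 members were above 0 (48.8% of all genes), and the median was 0.11. An unadjusted limma p under 0.05 was found for 3 members, Gbp4, Gbp7 and Trim30a, in all of which HFD was higher (1.32% of all genes in that direction), and for 0 members with HFD lower (2.30% of all genes). All 3 HFD values lay above all 3 NC values in 7 members, against 3.25% of all genes tested. These were Gbp4, Gbp7, Irf7, Ifih1, Cmpk2, Parp14 and Trim30a. That number depends on the scaling. After quantile normalization it was 2 (Ifih1 and Trim30a, against 5.31% of all genes), and after scaling by the median of ratios it was 3 (those and Gbp7, against 5.11%). With each library scaled to the same sum it was 8 (against 8.89%). Without HFD 3 it was 17 (against 4.64%), though leaving out a library cannot lower this number.

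The interferon-gamma-induced GTPases were higher on HFD in 8 of 8 genes, with a median log2 fold change of 0.41. Guanylate-binding proteins (Gbp) and the immunity-related GTPases (Igtp, Irgm1 and Iigp1) take part in the defence against microbes that hide in vacuoles. Gbp4 was at 9.49, 16.3 and 6.97 FPKM on HFD, against 5.53, 5.66 and 5.04 FPKM on NC, with libraries always given in the order 1, 2 and 3. Its diets did not overlap, with a log2 fold change of 0.82 (SE 0.28), or 0.51 if HFD 2 was left out. Gbp7 was at 6.50, 7.12 and 4.50 FPKM on HFD, against 3.71, 3.51 and 3.47 FPKM on NC. Here HFD 1 was nearly as high as HFD 2, the diets again did not overlap, and the log2 fold change of 0.61 (SE 0.23) was 0.49 without HFD 2. By limma the unadjusted p was 0.0118 for Gbp4 and 0.0208 for Gbp7. Exons of Gbp7 overlap those of the pseudogene Gm43802 on the same strand by 637 bases. Of the 50-base stretches in its annotated transcripts, 12.7% also occur in transcripts of other genes. Exons of Gbp4 overlap those of Gbp8 and Gbp9 on the same strand by 61 and 60 bases.

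Gbp2 was at 12.6, 18.1 and 10.1 FPKM on HFD, against 12.5, 7.66 and 8.12 FPKM on NC. NC 1 lay above HFD 3 and just under HFD 1, so the diets overlapped (log2 fold change 0.48, SE 0.26). Gbp6 was at 3.57, 8.97 and 5.45 FPKM on HFD, against 3.68, 4.46 and 3.79 FPKM on NC, and HFD 1 was the lowest library of all (log2 fold change 0.42, SE 0.28, and 0.13 without HFD 2). Of all 50-base stretches in the annotated transcripts of Gbp6, 70.7% also occur in transcripts of another gene, mostly in Gm43302 on the same strand, so its level is uncertain. The log2 fold change was 0.40 for Gbp3, 0.23 for Irgm1, 0.22 for Iigp1 and 0.12 for Igtp. For Igtp it was −0.20 without HFD 2, since NC 3, at 12.3 FPKM, was second to the 15.1 FPKM of HFD 2.

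The Gbp genes of this class lie in clusters. By GENCODE M21 annotation of the mm10 genome, Gbp7 (142530342 to 142550149), Gbp3 (142560026 to 142573209) and Gbp2 (142620602 to 142638008) follow each other on the plus strand of chromosome 3. Gbp4 (105115767 to 105139586) and Gbp6 (105270702 to 105293698) lie on the minus strand of chromosome 5. Members of both clusters were higher on HFD, with fold changes of 0.40 to 0.61 on chromosome 3 and of 0.42 and 0.82 on chromosome 5 (log2). Exons of Igtp and Irgm2 overlap on the same strand, and 11.8% of the 50-base stretches of Igtp are shared with Irgm2.

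**Figure D3:**
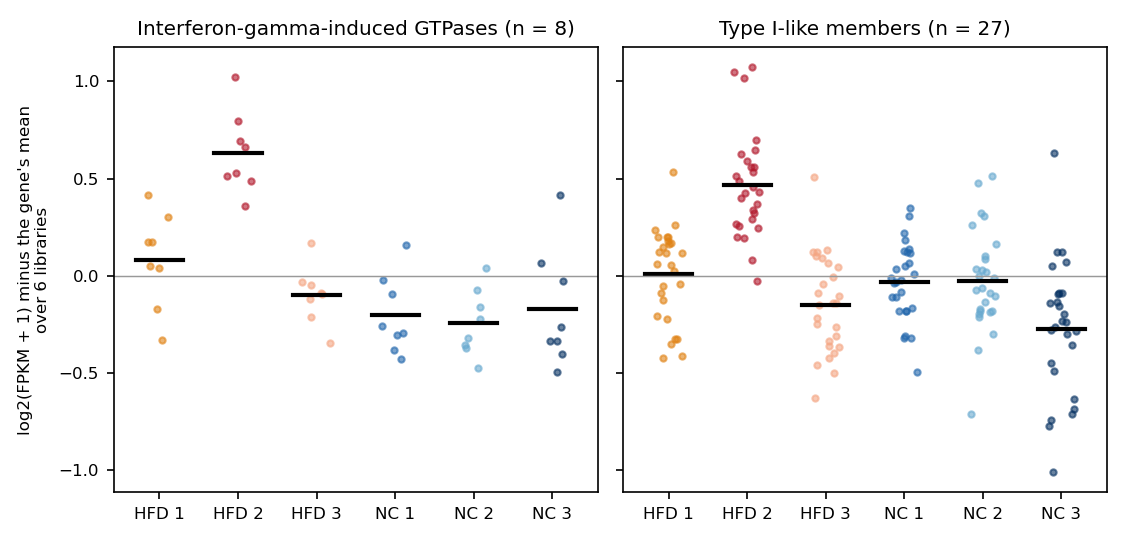
Level of each tested gene (points) as log2(FPKM + 1) minus the mean of that gene over the 6 libraries, by library, with black bars for the class mean. HFD 2 has the highest bar in both panels, at 0.63 for the GTPases and 0.47 for the type I-like genes.

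Type I-like genes had a lower mean fold change than the GTPases. Of 27 tested genes 23 were above 0 and 4 below, with a mean log2 fold change of 0.22, against 0.41 for the GTPases. Without HFD 2 the means were 0.05 and 0.20, with 15 of 26 type I-like genes and 7 of 8 GTPases above 0. Centred on the mean of each gene, the type I-like mean was 0.01, 0.47 and −0.15 in HFD 1, HFD 2 and HFD 3, against −0.03, −0.03 and −0.27 in NC 1, NC 2 and NC 3 (log2). The GTPase mean was 0.08, 0.63 and −0.10 on HFD, against −0.20, −0.24 and −0.17 on NC. HFD 3 lay below NC 1 and NC 2 in the type I-like genes. Its GTPase mean was above those of the NC libraries, but the mean over all genes was also highest in HFD 3, at 0.16, against 0.09, −0.11 and 0.07 in NC 1, NC 2 and NC 3. The GTPase mean minus the type I-like mean was 0.07, 0.17 and 0.05 on HFD, against −0.17, −0.22 and 0.10 on NC. The diets overlapped in this difference because of NC 3, where the type I-like genes were lowest. The difference of the fold changes, 0.19, was 0.13 without NC 2 and 0.29 without NC 3, and no test was made of it. HFD 3 lay above all NC values in 3 of 8 GTPases as deposited (37.5%, against 41.9% of all genes). After quantile normalization it did so in 0 of 8 (against 26.8%). It lay below all NC values in 0 of 8 as deposited (against 13.2%). After quantile normalization it lay below them in 3 of 8 (37.5%, against 24.3%).

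**Figure D4:**
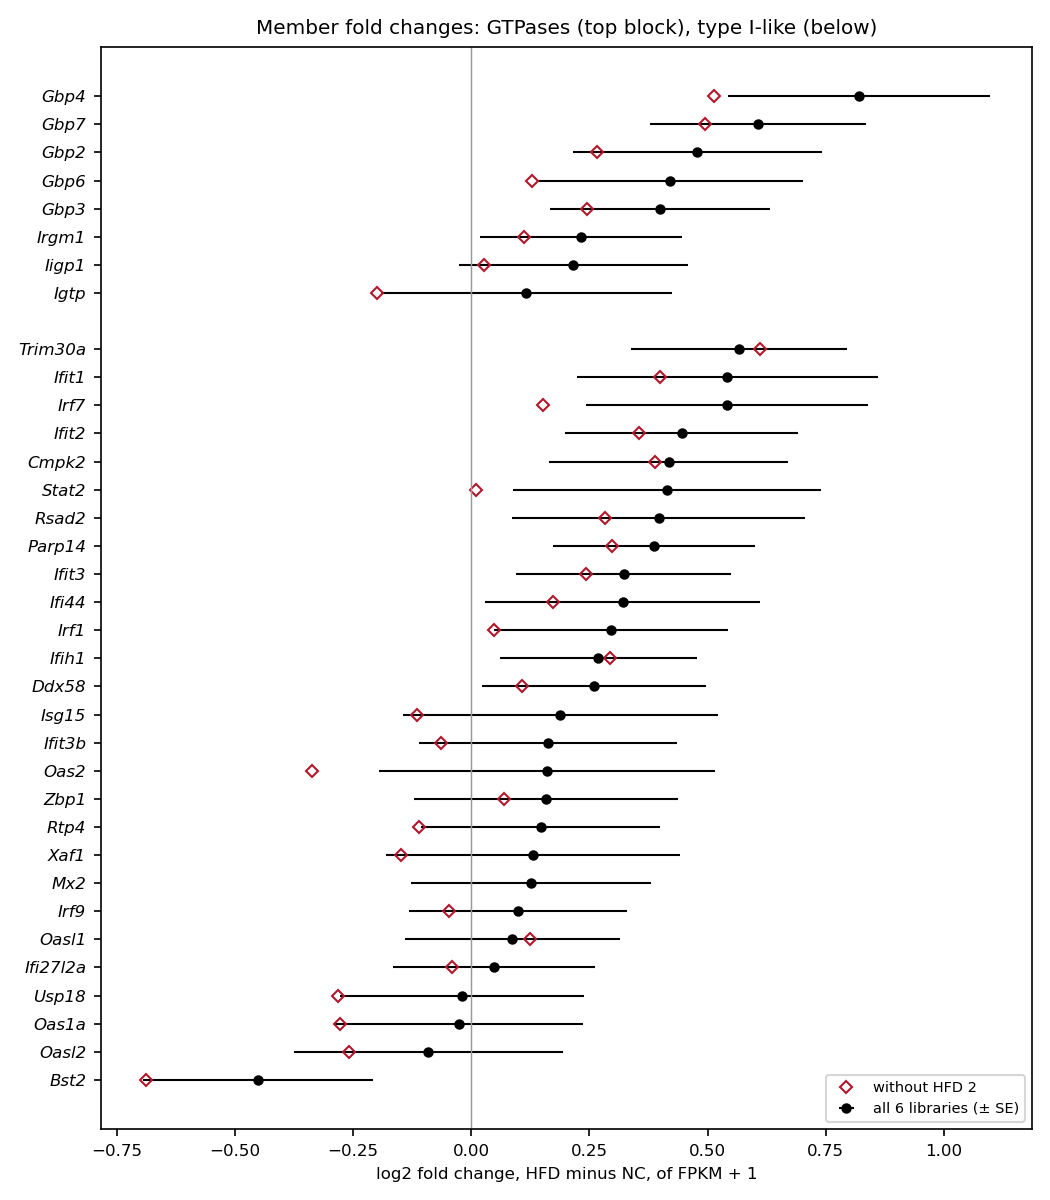
Log2 fold change (HFD minus NC, of FPKM + 1) of each tested gene with all 6 libraries (black, bars are SE) and without HFD 2 (red diamonds), GTPases in the upper block. Most diamonds lie left of their black points, while Trim30a, Ifih1 and Oasl1 lie right of theirs, and Mx2 has none because its mean is then under 1 FPKM.

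Among the regulators, Irf7, the transcription factor that amplifies type I interferon production, stood out in HFD 2. It was at 12.1, 27.9 and 11.6 FPKM on HFD, against 10.2, 11.2 and 10.4 FPKM on NC. Its diets did not overlap, but HFD 1 and HFD 3 lay just above NC, and the log2 fold change of 0.54 (SE 0.30) was 0.15 without HFD 2. Exons of Irf7 overlap those of Phrf1 on the opposite strand by 45 bases, and the sources used here do not give whether counting used strand. Stat2, the signal transducer that joins Irf9, was at 4.31, 12.7 and 5.58 FPKM on HFD, against 3.81, 4.99 and 6.02 FPKM on NC. HFD 2 was 2.11 times the next highest library, the others overlapped, and the log2 fold change of 0.41 (SE 0.33) was 0.01 without HFD 2. Irf1 was at 20.3, 30.9 and 16.0 FPKM on HFD, against 17.0, 17.1 and 18.2 FPKM on NC (log2 fold change 0.30, SE 0.25, and 0.05 without HFD 2). HFD 3 was the lowest library for Irf1 and HFD 2 the highest. The log2 fold change was 0.10 for Irf9 and −0.02 for Usp18, the protease that removes Isg15 from proteins and restrains the type I receptor. Usp18 was also highest in HFD 2, at 4.40 FPKM against 1.99 to 3.10 FPKM elsewhere.

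Sensors of foreign nucleic acid were higher on HFD in 3 of 3 genes, and HFD 2 was the highest library in 1 of them, Ddx58. Ifih1, which encodes the RNA sensor MDA5, was at 2.80, 2.52 and 2.61 FPKM on HFD, against 2.25, 1.86 and 1.98 FPKM on NC. The diets did not overlap under any scaling tried, and the fold change was 0.27 (log2, SE 0.21), or 0.29 if HFD 2 was left out. Ddx58, which encodes the RNA sensor RIG-I, was at 5.68, 6.96 and 4.08 FPKM on HFD, against 4.21, 5.04 and 4.01 FPKM on NC, with overlap in HFD 3 (log2 fold change 0.26, SE 0.24). Zbp1, a sensor of left-handed nucleic acid, was at 1.22, 1.44 and 0.853 FPKM on HFD, against 1.60, 0.247 and 1.22 FPKM on NC. The spread of Zbp1 within NC exceeded the difference between the diets, with NC 1 highest and NC 2 lowest of all libraries (log2 fold change 0.16, SE 0.28).

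The IFIT proteins bind viral RNA and block its translation, and all 4 genes had HFD 2 as their highest library. Ifit1 was at 3.69, 4.75 and 2.89 FPKM on HFD, against 2.62, 3.83 and 0.942 FPKM on NC. Ifit2 was at 3.53, 4.20 and 3.12 FPKM on HFD, against 3.13, 2.67 and 1.54 FPKM on NC. Ifit3 was at 10.6, 12.4 and 10.0 FPKM on HFD, against 9.10, 10.3 and 6.62 FPKM on NC. In these 3 genes NC 3 was the lowest library, and the diets overlapped in each. The log2 fold change was 0.54 (SE 0.32) for Ifit1, 0.44 (SE 0.25) for Ifit2 and 0.32 (SE 0.23) for Ifit3. Without NC 3 these became 0.17, 0.24 and 0.16, so that NC 3 moved them more than HFD 2 did (0.40, 0.36 and 0.24 without HFD 2). Ifit3b had a log2 fold change of 0.16 and a value of −0.06 without HFD 2. Ifit3 shares 51.2% of its 50-base stretches with Ifit3b, and the deposited values may split reads between them. The IFIT genes lie together on the plus strand of chromosome 19 (mm10), from the start of Ifit2 at 34550694 to the end of Ifit1 at 34650009.

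The OAS family, enzymes that make a second messenger from double-stranded RNA and so activate RNase L, together with related OASL proteins, had the lowest median log2 fold change of the role groups, at 0.03, with 2 genes above 0 and 2 below. Oas2 was at 4.19, 13.5 and 4.15 FPKM on HFD, against 5.09, 5.08 and 6.50 FPKM on NC. Without HFD 2, which was 2.08 times the next highest library, the log2 fold change of 0.16 (SE 0.36) was −0.34. Oasl2 was at 4.92, 8.06 and 5.91 FPKM on HFD, against 4.98, 5.51 and 10.5 FPKM on NC, and NC 3 was its highest library (log2 fold change −0.09, SE 0.28, and 0.20 without NC 3). Oasl1 was at 1.31, 1.17 and 1.38 FPKM on HFD, against 1.74, 0.802 and 1.02 FPKM on NC (log2 fold change 0.09, SE 0.23). The HFD values of Oasl1 all lay within the NC range. Oas1a had a log2 fold change of −0.03, and 57.6% of its 50-base stretches occur in the neighbouring Oas1g. Oas1a, Oasl2 and Usp18 turned to values above 0 when each library was scaled to the same sum.

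Antiviral effectors went both ways. Trim30a, a restriction factor gene that also restrains inflammatory signalling in mice, was at 5.13, 5.31 and 6.84 FPKM on HFD, against 4.45, 3.24 and 3.06 FPKM on NC. It was the single member with its highest value in HFD 3, and its diets did not overlap under any scaling tried. The log2 fold change was 0.57 (SE 0.23), or 0.61 if HFD 2 was left out. By limma its unadjusted p was 0.0291. Bst2, the tetherin gene, whose protein holds budding virus at the cell surface, was the most abundant of the effectors and had the lowest fold change of all members. It was at 32.7, 52.5 and 30.9 FPKM on HFD, against 48.3, 61.8 and 46.4 FPKM on NC. HFD 2 lay within the NC range and HFD 1 and HFD 3 below it, with a log2 fold change of −0.45 (SE 0.24) that was −0.69 without HFD 2. Cmpk2, a mitochondrial nucleotide kinase gene next to Rsad2 on chromosome 12, was at 3.61, 3.72 and 3.27 FPKM on HFD, against 3.05, 3.01 and 1.39 FPKM on NC. Its diets did not overlap, with a log2 fold change of 0.42 (SE 0.25), or 0.17 if NC 3 was left out.

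Other effectors had log2 fold changes of 0.40 for Rsad2, which encodes the antiviral enzyme viperin, 0.39 for the ADP-ribosyltransferase gene Parp14, 0.19 for the ubiquitin-like modifier gene Isg15 and 0.13 for Mx2. Isg15, picked out after its values were seen, ranged widely within both diets, at 12.5, 21.7 and 9.88 FPKM on HFD and at 12.0, 18.9 and 7.70 FPKM on NC. Mx1, the only member under the filter, was at 0.121, 0.510 and 0.181 FPKM on HFD, against 0.216, 0.345 and 0.291 FPKM on NC, and was not tested. Its highest value lay in HFD 2 as well. GENCODE M21 lists Mx2 as a polymorphic pseudogene.

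The remaining genes of the list are induced by interferon with less defined roles. Ifi44 was at 3.0, 3.89 and 2.23 FPKM on HFD, against 2.65, 3.27 and 1.09 FPKM on NC (log2 fold change 0.32, SE 0.29, and 0.01 without NC 3). Rtp4, a receptor chaperone gene, was at 10.5, 17.8 and 9.52 FPKM on HFD, against 11.4, 11.7 and 9.62 FPKM on NC (log2 fold change 0.15, SE 0.25). Xaf1, whose protein counters the apoptosis inhibitor XIAP, was at 14.2, 19.4 and 7.56 FPKM on HFD, against 9.59, 15.6 and 10.5 FPKM on NC (log2 fold change 0.13, SE 0.31). In Rtp4 and Xaf1, HFD 3 was the lowest library and HFD 2 the highest, and the values without HFD 2 were −0.11 and −0.15 (log2). Ifi27l2a was the most abundant member, at 84.5 to 104 FPKM on HFD and 70.0 to 102 FPKM on NC, and had a log2 fold change of 0.05.

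Upstream of these genes, interferons themselves were scarcely measured. Ifng, the gene of interferon-gamma, was listed at 0 in HFD 1, HFD 2 and HFD 3, against 0.0481 FPKM in NC 1, 0 in NC 2 and 0.163 FPKM in NC 3. Of 14 ligand and inducer genes listed, 5 had values and 1 was tested, the cytokine gene Il15 (log2 fold change 0.19, SE 0.27). Ifnb1 was among the 14 and had no values under its symbol. At such levels a 0 does not show that the transcript was absent.

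Receptor and signal transducer genes showed no counterpart to the height of HFD 2. HFD 2 was highest in 0 of 5 tested receptor genes and in 2 of 8 genes of the JAK-STAT list (against 17.7% of all genes). Ifnar1 was at 5.27, 6.73 and 5.26 FPKM on HFD, against 6.05, 3.62 and 7.22 FPKM on NC (log2 fold change 0.06, SE 0.26). Ifngr1 was at 27.1, 28.2 and 24.6 FPKM on HFD, against 29.4, 21.1 and 21.6 FPKM on NC (log2 fold change 0.15, SE 0.21). The other receptor genes with the smallest p were Ifnar2 (−0.14), Il10rb (−0.14) and Ifngr2 (0.16), and the transducer genes given here are Jak2 (0.31), Ptpn11 (0.24) and Ptpn6 (−0.15, all log2 fold changes). No gene of either list had an unadjusted limma p under 0.05.

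Socs1, the feedback inhibitor of JAK kinases that interferon-gamma induces, went against the GTPases. It was at 0.621, 1.69 and 1.34 FPKM on HFD, against 2.67, 3.49 and 3.36 FPKM on NC. The diets did not overlap (HFD below in 4.88% of all genes), and the log2 fold change of −0.94 (SE 0.25) was −1.09 without HFD 2. By limma its unadjusted p was 0.00237 and its adjusted p 0.881. Of 11 regulators and modifiers in that list, 7 were above 0 and 4 below, among them Socs3 (−0.38), Herc6 (0.39) and Cish (0.30). In the sensing pathway that leads to interferon production, 6 of 11 tested genes were above 0 and 5 below. The adaptor gene Myd88 was at 4.00, 5.83 and 4.64 FPKM on HFD, against 8.11, 6.07 and 6.69 FPKM on NC, with the diets apart (log2 fold change −0.45, SE 0.23). Tmem173, the gene of the DNA-sensing adaptor STING, was likewise lower in every HFD library (−0.36), while the ubiquitin ligase gene Trim25 was higher in every one (0.42), and Mavs was at 0.19 (log2).

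HFD 2 was also the highest library in most genes of a wider list of interferon-induced genes. Of 52 tested genes 42 were above 0 (80.8%, against 46.9% of all genes) and 10 below, with a median log2 fold change of 0.21. HFD 2 was highest in 40 (76.9%, against 17.7% of all genes). Without HFD 2, 36 were above 0 (against 48.8% of all genes) and the median was 0.12. An unadjusted limma p under 0.05 was found for 6 of the 52, all higher on HFD (1.32% of all genes in that direction). Gbp5, a neighbour of the chromosome 3 members, was at 5.78, 6.05 and 5.70 FPKM on HFD, against 4.03, 3.43 and 2.06 FPKM on NC. The 3 HFD values of Gbp5 were close together and above NC, and the log2 fold change of 0.74 (SE 0.24) was 0.72 without HFD 2. Ifitm1, which encodes a membrane protein that blocks viral entry, was at 10.7, 11.3 and 9.52 FPKM on HFD, against 7.91, 6.09 and 2.96 FPKM on NC (log2 fold change 0.87, SE 0.29). Ifi205 (0.85) and Eif2ak2, the gene of the RNA-activated kinase PKR (0.51), had the next smallest p. MHC class I presentation genes, which interferons also induce, were highest in HFD 2 in 15 of 16 cases (against 17.7% of all genes). H2-K1 was at 146, 261 and 135 FPKM on HFD, against 155, 122 and 147 FPKM on NC, and the median log2 fold change of the list was 0.23 with HFD 2 and −0.04 without it. The members with the smallest p there were H2-Q6 (0.58), Tapbpl (0.33) and H2-Q7 (0.47).

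Markers of cells that could carry these transcripts did not all follow the same libraries. Macrophage and monocyte markers were below 0 in 10 of 11 tested genes (median log2 fold change −0.47), with an unadjusted limma p under 0.05 in 5 (2.30% of all genes with HFD lower), and their summed level was 179 to 223 FPKM on HFD and 223 to 334 FPKM on NC. HFD 2 was highest in 1 of these 11, Ly6c2. Endothelial markers were above 0 in 10 of 12 genes (median 0.14), and HFD 2 was highest in 6 (50%, against 17.7% of all genes). Cldn5 (−0.52) and Vwf (−0.12) were below 0. The sums were 1089 to 2056 FPKM on HFD and 906 to 1403 FPKM on NC. Fabp4, also listed as an adipocyte marker, made up a large part of these sums. It was at 1228, 1368 and 611 FPKM on HFD, against 878, 538 and 423 FPKM on NC. T and NK cell markers summed to 4.40 to 5.90 FPKM over 12 genes on HFD and 4.12 to 9.58 FPKM on NC, and Cd3d was at 0 in HFD 1, HFD 2 and NC 3. Neutrophil markers summed to 1.88 to 5.05 FPKM over 7 genes on HFD and 1.93 to 3.83 FPKM on NC, with Ly6g at 0 in all libraries but NC 3. B cell markers summed to 10.1 to 12.4 FPKM over 8 genes on HFD and 9.34 to 16.1 FPKM on NC. Fibroblast markers were below 0 in 9 of 10 genes (median −0.48), with an unadjusted limma p under 0.05 in 3, and the collagen gene Col3a1 had a log2 fold change of −1.38 with the diets apart. HFD 2 was highest in 0 of these 10. Cardiomyocyte markers were below 0 in 10 of 12 genes (median −0.24), and HFD 2 was highest in 0 of them. Of 9 dendritic and plasmacytoid cell markers 3 were tested, with log2 fold changes of 0.24 for Clec9a, whose diets did not overlap, 0.26 for Tcf4 and −0.45 for Bst2, itself a member. Siglech, under the filter, was at 0.0197 to 0.250 FPKM on HFD and 0.112 to 0.433 FPKM on NC. The part of these cells in the values of HFD 2 was not tested.

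**Figure D5:**
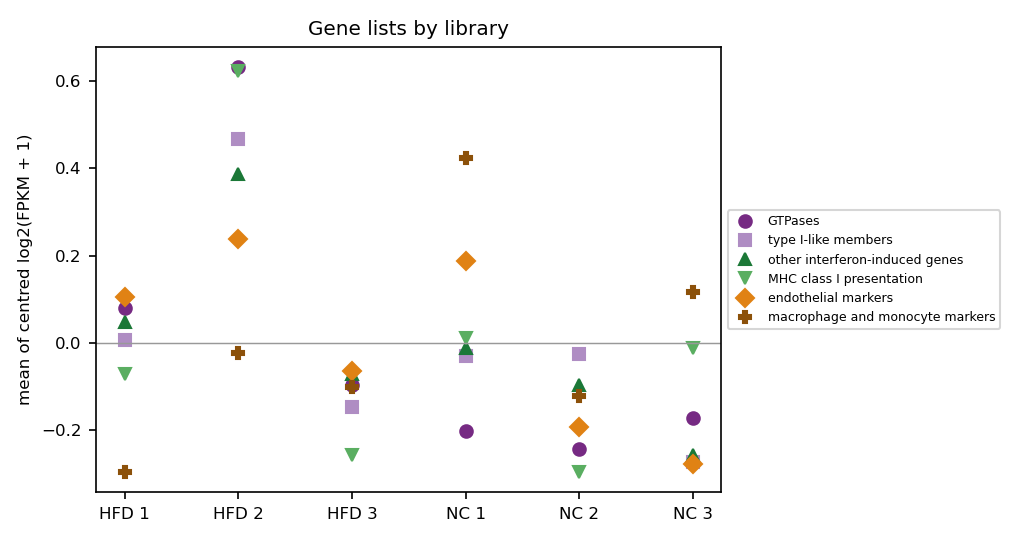
Mean over the tested genes of each list of log2(FPKM + 1), centred on the mean of each gene, by library. In HFD 2 the GTPases (0.63), MHC class I genes (0.62), type I-like genes (0.47) and other interferon-induced genes (0.39) are all high, the endothelial markers are at 0.24 and the macrophage and monocyte markers at −0.02.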

How the data were processed

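Total RNA from heart was extracted with Trizol and made into libraries with a VAHTS mRNA-seq kit, per the labels' protocols. The authors deposited FPKM values per gene for 6 libraries, and no source used here gives the program behind them. Listed without roles, per the submitters' processing notes, are the mm10 build, DESeq2 1.18.1, Trimmomatic 0.38, HTSeq 0.13.5, FastQC 0.11.9, R 3.4.1 and HISAT2 2.2.1. Symbols were matched by gene identifier for 23718 genes, and 90 had none. Steps of 1 read were looked for in genes under 0.3 FPKM, where 2.40 to 4.95% of the ratios to NC 1 lay within 0.02 (log2) of the commonest one. No read counts were recovered, so no count test or counting interval is given.

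Values were taken to log2(FPKM + 1), genes averaging 1 FPKM or more were kept, and limma 3.58.1 in R 4.3.3 compared HFD with NC (eBayes with trend, two-sided, Benjamini-Hochberg over all genes tested, threshold 0.05), after a trial on simulated data. Summaries used pandas 2.3.3 and figures matplotlib 3.10.9 in Python 3.11.15. The members and lists were chosen with earlier results of these data known, so no set test or p over a list is given. Members with a sentence per library were up to 3 per role group (4 for the GTPases) with the largest absolute fold change, plus the one under the filter. Of other lists, up to 4 genes with the smallest p and Ifng, Ifnar1 and Ifngr1 are named. A result for 1 gene that the rule also names is not reported here. Shared stretches of 50 bases were counted over GENCODE M21 transcripts. Alternatives were 2 other pseudocounts, 2 filters, 3 scalings, 3 fits, a replicate block and each library left out. Counts of genes whose diets do not overlap, and of the highest library, under other scalings were added after seeing the data.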

Additional observations from a re-analysis of the deposited data

How the results depend on the processing

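No member passed an adjusted p of 0.05 with limma under any setting (smallest 0.217, Gbp4 with the replicate block). Under settings that keep every library, 381 of 385 member fold changes kept their sign. The exceptions were Usp18 (0.079), Oas1a (0.072) and Oasl2 (0.024) with each library scaled to the same sum, and Ifi27l2a (−0.015) with library weights. Scaling to the same sum moved the median of all genes from −0.02 to 0.09 and gave 8 members at an unadjusted p under 0.05 (all higher on HFD, against 3.93% of all genes in that direction), where the deposited values gave 3 (against 1.32%). The number of members with the diets apart was 2 after quantile normalization (against 5.31% of all genes) and 3 with the median of ratios (against 5.11%). With the deposited values it was 7 (against 3.25%). Leaving out 1 library gave 0 to 1 genes past the threshold and 1 to 5 members at an unadjusted limma p under 0.05. Of all genes, 0.832 to 2.43% then had such a p with HFD higher and 1.21 to 4.57% with HFD lower. Bst2, without HFD 2, was the only member among these with HFD lower. The number of members with the diets apart cannot fall when a library is left out. Leaving out 1 library gave 7 to 17 such members, with 17 reached without HFD 3 (against 4.64% of all genes). It turned the sign of 13 members, for which the log2 fold change ranged from −0.28 to 0.14 (Usp18), −0.28 to 0.12 (Oas1a), −0.27 to 0.20 (Oasl2), −0.20 to 0.35 (Igtp), −0.047 to 0.29 (Irf9), −0.064 to 0.43 (Ifit3b), −0.34 to 0.41 (Oas2), −0.11 to 0.49 (Isg15), −0.11 to 0.31 (Rtp4), −0.12 to 0.15 (Ifi27l2a), −0.15 to 0.48 (Xaf1), −0.16 to 0.27 (Zbp1) and −0.041 to 0.26 (Oasl1). The mean was 0.05 to 0.35 for the type I-like genes and 0.20 to 0.56 for the GTPases. The causes were not tested. The replicate number as a block gave 73 genes past the threshold and 5 members at an unadjusted p under 0.05, all higher on HFD (against 1.98% of all genes in that direction). Deviations of same-numbered libraries correlated at 0.19, 0.09 and 0.28 across genes, and HFD 1 and HFD 2 each correlated best with another number, so the numbers were not taken as pairs. Depth is unknown, which limits the genes near 1 FPKM most.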

Other observations

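Genes of the enzymes that attach Isg15 to proteins, chosen after their values were seen, were highest in HFD 2 like most members. Uba7, which activates Isg15, was at 14.1, 26.1 and 11.3 FPKM on HFD, against 11.4, 11.3 and 15.3 FPKM on NC (libraries 1, 2 and 3 of each diet). Herc6, the ligase of mice, was at 2.47, 4.62 and 3.24 FPKM on HFD, against 2.34, 3.17 and 1.62 FPKM on NC. Ube2l6, the conjugating enzyme, was at 16.3, 19.1 and 9.12 FPKM on HFD, against 16.7, 17.5 and 10.8 FPKM on NC. The diets overlapped in all 3.

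Genes of the Ly6 family, also chosen after their values were seen, were abundant and had HFD 1 and HFD 2 above every NC library. Ly6a, the gene of the stem cell and endothelial antigen Sca-1, was at 275, 295 and 148 FPKM on HFD, against 190, 154 and 93.8 FPKM on NC. Ly6e was at 234, 304 and 201 FPKM on HFD, against 214, 171 and 172 FPKM on NC. HFD 3 lay within the NC range for both.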
